A study of Ptychidio jordani with 7 samples.

Results

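The proteasome is the large barrel-shaped protease that degrades ubiquitin-tagged proteins, and its genes were followed here in 7 tissues of a cyprinid fish, the ratmouth barbel Ptychidio jordani. Members were the rows of the deposited table whose gene name, in lower case, begins with psm, a letter from a to g and a digit. This rule gave 59 of 26107 rows, which carry 45 distinct gene roots. RNA sequencing libraries were made from heart, muscle, liver, kidney, spleen, gill and caudal fin, with 1 library per tissue, and the samples are labelled as normal with no treatment, age, sex or strain given. The libraries accompany a chromosome-level assembly of the genome of this species. Values are FPKM, fragments per kilobase of gene scaled to the mapped fragments of a library, so levels of different genes can be set side by side per unit of length. With 1 sample per tissue no difference has a replicate check, no test was run and no p-value is given. The table holds no read totals, so the depth and the counting error are unknown.

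The 20S core particle is a stack of rings, with alpha subunits (psma genes) in the outer rings and beta subunits (psmb genes) in the inner ones. Cutting is done by the beta subunits encoded by psmb5, psmb6 and psmb7. In mammals, interferon-gamma induces psmb8, psmb9 and psmb10, whose products take the places of psmb5, psmb6 and psmb7 and form the immunoproteasome, which favours peptides suited to MHC class I. The 19S regulatory particle caps the core, with a ring of ATPases (psmc genes) that unfolds and feeds the substrate and non-ATPase subunits (psmd genes) that bind and strip ubiquitin. Other caps are formed by psme1 and psme2 (PA28 alpha and beta), psme3 (PA28 gamma, nuclear) and psme4 (PA200). The psmg genes encode chaperones that assemble the core, the psmd5, psmd9 and psmd10 products help to assemble the 19S base, and psmf1 encodes PI31, named for inhibition of the core in the test tube.

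By role the members comprised 10 alpha rows, 8 constitutive beta rows, 7 ATPase and 14 non-ATPase rows of the 19S particle, 4 rows named for immune beta subunits, 3 assembly factors of the 19S base, 5 activator rows, 4 core assembly chaperones and 1 PI31 row. Another 2 rows have constitutive names but protein annotations of immune type: a PSMB7 row (Pjo18805) annotated as beta 13a, and psmb6l-b (Pjo18806), annotated as beta 12. They are kept apart from both classes. PSME3IP1 (Pjo18190) matched the rule but encodes a protein that binds PSME3, not a subunit. No row analysed here carried the name psmb10, psmb12, psmb13 or psmd8. An FPKM of at least 1 in some library was reached by 56 of the 59 rows. The other 3 were PSMB11 (Pjo23312), highest at 0.02 in kidney, a second psmb9-a row (Pjo18810), at most 0.79 in muscle, and a second Psmd1 row (Pjo21750), at 0.32 in heart and listed at 0 elsewhere. In mammals psmb11 is a subunit of the thymus.

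The libraries differ in makeup, and some values touch the results below. All detected rows of the defining markers of heart, muscle and fin, 5, 9 and 5 in number, were highest in their own libraries. This held for 6 of 8 detected kidney rows and 3 of 6 gill rows. The gill marker rhbg (Pjo13904), for example, was 3.08 in gill and 17.37 in kidney. Of 4 liver rows none was highest in liver, and 3 were highest in the library labelled spleen. The remaining liver marker, apoa1 (Pjo05401), was 0.05 in liver and 1.98 in muscle. The library labelled spleen held the liver fibrinogen gene FGB (Pjo00985) at 11947, against 10019 in liver, and the red cell gene slc4a1 (Pjo03587) at 3.53, so it is not read here as spleen. The 46 egg and oocyte rows had a median of 652 in muscle and 413 in kidney, and lower ones of 72.0 in fin, 18.3 in heart, 4.86 in liver, 0.52 in gill and 35.2 in the library labelled spleen. An FPKM is a share of its library. The log2 factors of median-of-ratios scaling were -1.89 in liver, -0.35 in heart, -1.13 in the library labelled spleen and between 0.63 and 1.05 in the other 4. Ratios of FPKM within a library do not depend on these factors.

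**Figure D1:**
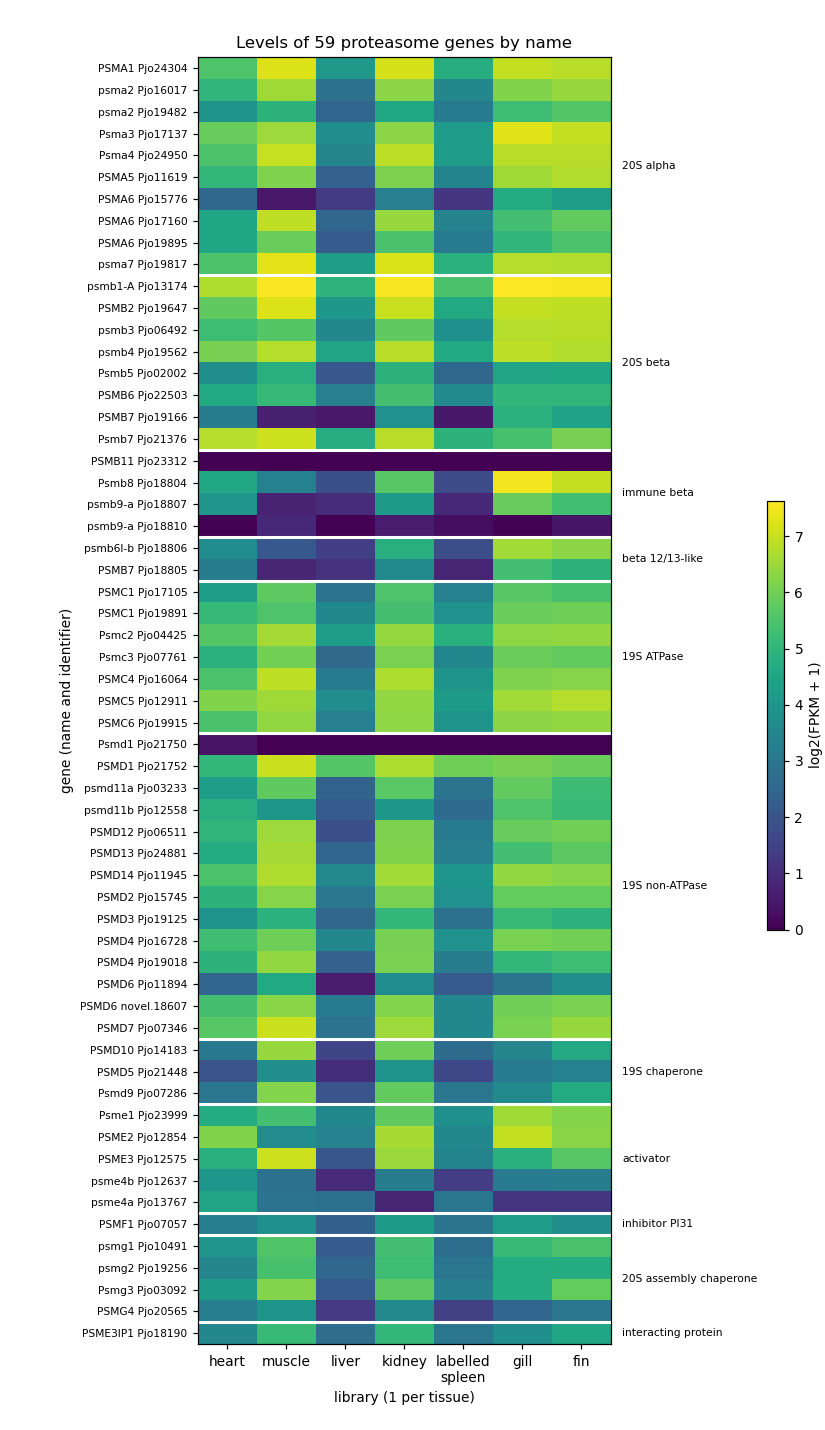
Level of each of the 59 members (rows, by role) in the 7 libraries (columns), as log2(FPKM + 1) in colour. Most constitutive rows are bright in muscle, kidney, gill and fin and dark in liver and the library labelled spleen. The detected immune rows and their like are brightest in gill and fin and darker in muscle, liver and the library labelled spleen. PSMB11 and the second psmb9-a row are dark in every library.

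The constitutive subunits formed the bulk of the family, and their median stood above most detected genes in every library. Single rows were low, such as PSMB7 (Pjo19166) at 0.60 in muscle and Psmd1 (Pjo21750) at 0 outside heart. The median FPKM over the 39 constitutive 20S and 19S rows was 82.6 in muscle, 69.0 in kidney, 63.4 in fin, 59.8 in gill, 32.1 in heart, 10.9 in the library labelled spleen and 7.41 in liver. Muscle, kidney, fin and gill were close to each other, heart was lower, and liver and the library labelled spleen were lowest. After median-of-ratios scaling, with the mean over the libraries kept, the medians were 67.3 in muscle, 52.5 in heart, 49.4 in gill, 48.0 in fin, 42.5 in kidney, 30.4 in the library labelled spleen and 35.2 in liver. Muscle was still first and heart came second, liver and the library labelled spleen were still lowest, and the spread between the libraries was narrower. Ranked within its own library, the constitutive median stood above 94.1% of the 21151 detected genes in muscle and above 87.6% in liver, with the other libraries between. All 59 members together held 0.529% of the summed FPKM in muscle and 0.081% in liver.

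Of the 56 detected members, 29 were highest in muscle, 16 in gill, 5 in fin, 4 in kidney, 2 in heart and none in liver or the library labelled spleen. Over all detected genes the shares were 25.6% in muscle, 23.2% in gill, 18.4% in fin, 17.0% in kidney, 9.96% in heart, 4.45% in the library labelled spleen and 1.5% in liver. The muscle count stood above its background and the gill count was near its own. Among the 38 detected constitutive rows, 21 were highest in muscle, 9 in gill, 5 in fin and 3 in kidney. Scaling by median of ratios left muscle with 26 and moved the heart count to 13 and the kidney count to 0, beside 29.1%, 17.8% and 3.47% of all genes by the same scaling. Without the muscle library kidney was highest for 26 and fin for 11, but no share over all genes was taken in that setting to set beside them. Muscle and kidney were the libraries in which the egg rows were high, and the part of those rows' source in these counts was not tested.

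Measured against the median of the other 6 libraries at a 2-fold limit on FPKM + 1, 54 of the 56 members were lower in liver, as were 53 in the library labelled spleen. The background was 47.7% and 35.1% of all genes, and after median-of-ratios scaling 8 and 6 members passed, beside 13.01% and 7.46% of all genes. The members' median difference in liver was -2.67 log2 units beside -0.92 for all detected genes, and -0.37 beside -0.05 after scaling. The shares and medians over all genes in this comparison are not matched for level. The median detected gene was at 0.60 in liver and 5.11 in kidney. Adding 1 to FPKM narrows the differences of such low genes, so fewer of them can pass the limit. By the same limit 21 members were higher in muscle, against 35.3% of all genes, 19 in kidney, against 40.0%, 16 in fin, against 35.1%, and 13 in gill, against 32.0%. Heart was lower for 14, against 21.0%. Fewer rows went the other way: 2 were lower in gill, 1 in kidney and 1 in fin, against 6.92%, 3.23% and 2.7%, and none was higher in liver, against 5.33%. In muscle 7 were lower, against 10.2%, in heart 4 were higher, against 13.7%, and in the library labelled spleen 1 was higher, against 5.63%. None of the first counts in muscle, kidney, fin, gill or heart was far from its background share of 56 rows. After scaling they were 8, 1, 6 and 8 higher and 0 lower, beside 24.9%, 16.9%, 16.3% and 21.1% of all genes higher and 12.2% lower. All 5 counts were then under these shares of 56 rows, those in kidney and heart by the most.

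Most subunits of the 26S particle varied less in proportion to each other across the tissues than the median detected gene did against them. Each row was set against the median of the 39 constitutive rows of the same library, on the log2(FPKM + 1) scale, and the SD of that difference was taken over the 7 libraries. It was under 0.5 for 29 of the 38 detected constitutive rows, against 5.36% of all detected genes, although the rows themselves set the median they are compared with. Rows under 0.5 could still shift by over 2-fold between libraries. The difference ran from -0.68 to 0.74 for PSMA5 (Pjo11619) and from 0.13 to 1.35 for Psma3 (Pjo17137). The median SD was 0.31 over the constitutive rows and 1.16 over all detected genes. These backgrounds are not matched for level: the median detected gene was at 0.60 in liver and 5.11 in kidney. Adding 1 to FPKM narrows the differences of such low rows, so they can depart from the median even at fixed proportions. The steadiest row of all was PSMD14 (Pjo11945), the deubiquitinase of the 19S lid, whose difference stayed between 0.26 and 0.51 with an SD of 0.086. PSMB2 (Pjo19647, a structural beta subunit), PSMC6 (Pjo19915, an ATPase), the more abundant of the PSMD6 rows (lid), psmg1 (Pjo10491, a core chaperone) and PSMD2 (Pjo15745, a ubiquitin-binding base subunit) followed, with SDs from 0.11 to 0.16. The summed FPKM of constitutive 20S rows was between 1.03 and 1.25 times that of 19S rows in every library, highest in gill and fin.

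Of the alpha rows Psma4 (Pjo24950) had the highest median over the 7 libraries, although in each library another alpha row was higher. It was at 123 in muscle, 116 in kidney, 112 in fin, 112 in gill, 44.1 in heart, 17.5 in the library labelled spleen and 10.2 in liver. Its level was nearly the same in muscle, kidney, fin and gill. Psma3 (Pjo17137) and PSMA5 (Pjo11619) leaned to the surface tissues, at 154 and 92.5 in gill against 90.8 and 71.0 in muscle. The lowest alpha median belonged to 1 of 3 PSMA6 rows. This row (Pjo15776), annotated as alpha type-6-like, was 25.0 in gill, 18.3 in fin, 8.97 in kidney, 4.88 in heart, 1.47 in liver, 1.3 in the library labelled spleen and 0.43 in muscle. The other PSMA6 rows ran the opposite way between the same tissues: Pjo17160 was 119 in muscle and 39.6 in gill, and Pjo19895 was 58.3 and 31.5. The copy Pjo15776 thus made up 0.24% of the summed PSMA6 FPKM in muscle and 26.0% in gill. Reads can be divided wrongly between similar copies by the estimation, and how alike these copies are was not measured here.

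Of the constitutive beta rows psmb1-A (Pjo13174), a structural subunit, had the highest median, at 198 in gill, 193 in muscle, 189 in kidney, 185 in fin, 104 in heart, 42.2 in the library labelled spleen and 30.0 in liver. Of the catalytic subunits, Psmb5 and PSMB6 were far lower than psmb1-A in every library. Psmb5 (Pjo02002), the chymotrypsin-like subunit, was 29.4 in kidney, 27.1 in muscle, 21.4 in fin, 21.1 in gill, 13.1 in heart, 4.83 in the library labelled spleen and 3.24 in liver. PSMB6 (Pjo22503), the caspase-like subunit, was 40.9 in kidney, 33.5 in muscle, 31.9 in gill, 30.9 in fin, 23.9 in heart, 11.7 in the library labelled spleen and 9.03 in liver. Neither showed an excess in gill or fin over muscle and kidney. The main Psmb7 row (Pjo21376), the trypsin-like subunit, was 133 in muscle, 113 in kidney, 109.7 in heart, 66.3 in fin, 41.2 in gill, 29.6 in the library labelled spleen and 25.8 in liver. Its place among the libraries differed from that of the other constitutive rows: relative to their median it was 1.74 log2 units higher in heart and 1.67 higher in liver, and -0.53 in gill. The structural subunit psmb3 (Pjo06492) stood the other way, at 112 in fin and 110.5 in gill against 48.2 in muscle and 54.2 in kidney.

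The immune beta subunits were led by gill and fin, and muscle, first for most constitutive rows, was among their lowest libraries. Psmb8 (Pjo18804), the immune counterpart of psmb5, was 179.8 in gill, 123 in fin, 49.3 in kidney, 23.1 in heart, 9.22 in muscle, 2.41 in the library labelled spleen and 2.67 in liver. The main psmb9-a row (Pjo18807), the counterpart of psmb6, was 57.5 in gill, 39.5 in fin, 17.0 in kidney, 14.8 in heart, 0.97 in liver, 0.83 in the library labelled spleen and 0.69 in muscle. In gill Psmb8 ranked 2 among the 59 members, after psmb1-A, and in muscle it ranked 49. Against the median of the 18 constitutive 20S rows, Psmb8 stood at 1.14 in gill, 0.35 in fin, -0.58 in heart, -0.65 in kidney, -1.53 in liver, -1.97 in the library labelled spleen and -3.18 in muscle on the log2(FPKM + 1) scale. For psmb9-a the differences were -0.49 in gill, -1.19 in heart, -1.26 in fin, -2.14 in kidney, -2.43 in liver, -2.87 in the library labelled spleen and -5.77 in muscle. Psmb8 thus exceeded the typical constitutive 20S subunit in gill and fin, and psmb9-a in no library.

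Paired with the subunits they replace in mammals, both immune subunits were the more abundant in gill and fin, and psmb8 also in heart and kidney. The subunits they are set against were often low themselves. Psmb5 stood between -1.57 and -0.99 log2 units from the median of the constitutive rows. PSMB6 stood at -0.89 in gill and -1.01 in fin, and above that median only in liver and the library labelled spleen, at 0.25 and 0.09. The ratio of psmb8 to psmb5 FPKM was 8.53 in gill, 5.74 in fin, 1.77 in heart, 1.68 in kidney, 0.82 in liver, 0.50 in the library labelled spleen and 0.34 in muscle. The ratio of psmb9 to psmb6, with both psmb9-a rows summed, was 1.80 in gill, 1.29 in fin, 0.62 in heart, 0.43 in kidney, 0.11 in liver, 0.09 in the library labelled spleen and 0.044 in muscle. Both ratios were highest in gill and lowest in muscle, 25.1 and 40.9 times apart. Heart and kidney followed fin in both. No psmb10 row was analysed, so the matching ratio for psmb7 is not given. The psmb9 ratio in muscle rests on values under 1 FPKM, and with only the higher copy of each name it was 0.024.

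**Figure D2:**
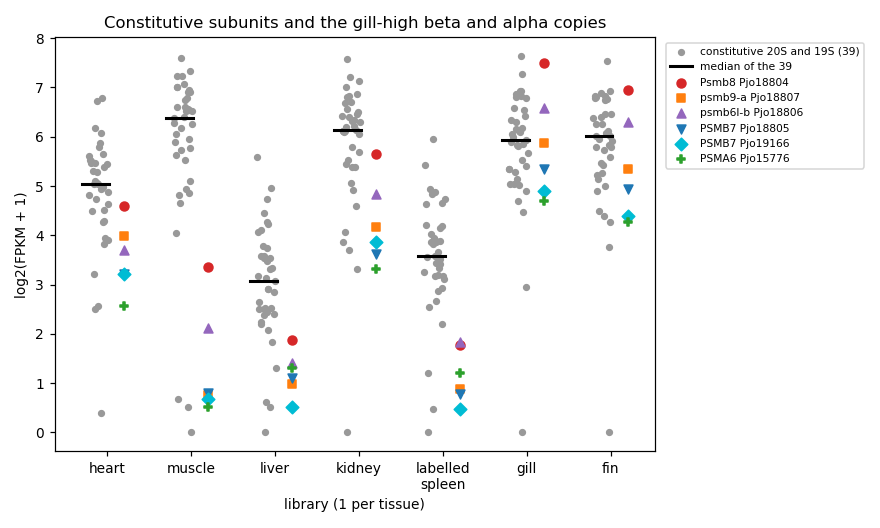
Level of constitutive 20S and 19S rows (grey points, black bar at their median) and of 6 rows that were high in gill and low in muscle (coloured), as log2(FPKM + 1) in each library. The coloured points lie among the grey ones in gill and fin and far below the bar in muscle; Pjo19166 and Pjo15776 are also among the grey points.

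**Figure D3:**
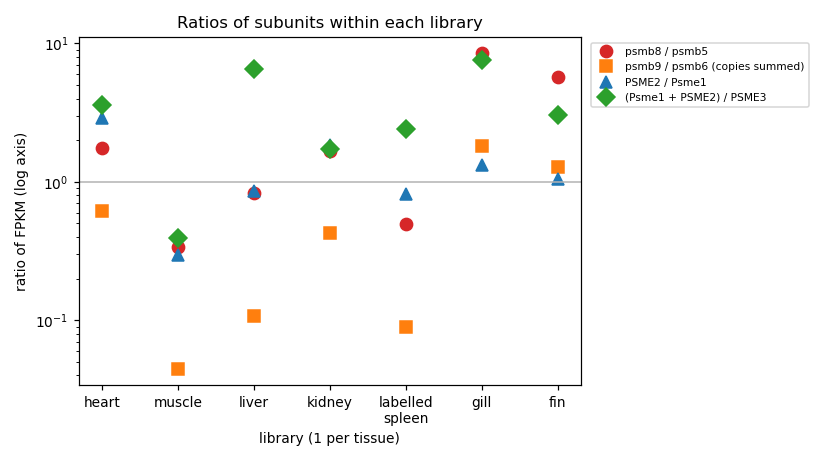
Ratio of FPKM between pairs of subunits within each library, on a log axis, with a line at 1. The psmb8 to psmb5 ratio is 8.53 in gill and 0.34 in muscle, and all 4 ratios are below 1 in muscle.

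Rows of constitutive name carried the same profile. The psmb6l-b row annotated as beta 12 (Pjo18806) was 94.7 in gill, 77.9 in fin, 27.5 in kidney, 12.1 in heart, 3.34 in muscle, 2.58 in the library labelled spleen and 1.67 in liver. The PSMB7 row annotated as beta 13a (Pjo18805) was 39.5 in gill, 29.8 in fin, 11.4 in kidney, 8.29 in heart, 1.15 in liver, 0.75 in muscle and 0.72 in the library labelled spleen. Both beta 12 and beta 13 are names used in fish for beta subunits of the immune type encoded near the MHC class I genes. Relative to PSMB6, psmb6l-b ran from 0.1 in muscle to 2.97 in gill. Relative to the main Psmb7 row, Pjo18805 ran from 0.0056 in muscle to 0.96 in gill. Another PSMB7 row (Pjo19166), annotated only as beta type-7-like, was 28.7 in gill, 20.1 in fin, 13.5 in kidney, 8.33 in heart, 0.60 in muscle, 0.40 in the library labelled spleen and 0.44 in liver. Of the summed PSMB7 FPKM, the main row held 99.0% in muscle and 37.7% in gill.

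These beta genes had neighbouring identifiers in the table. Psmb8, the beta 13a row, psmb6l-b and psmb9-a were Pjo18804 to Pjo18807, followed by the peptide transporter gene TAP2 (Pjo18808), an unnamed row annotated as MHC class I (Pjo18809), the second psmb9-a (Pjo18810), a second TAP2 (Pjo18811), a class I row named Mr1 (Pjo18812) and the tapasin gene TAPBP (Pjo18813). The files give no positions, so identifiers stand in for order here. TAP2 (Pjo18808), which carries peptides into the endoplasmic reticulum, was 16.1 in gill, 7.80 in fin, 5.53 in kidney, 4.87 in heart, 0.48 in liver, 0.33 in the library labelled spleen and 0.32 in muscle. The row named Mr1, annotated as an MHC class I antigen, was 1511 in gill, 706 in fin, 366 in heart, 357 in kidney, 34.5 in liver, 30.2 in the library labelled spleen and 22.4 in muscle. TAPBP, which loads class I molecules, was 9.12 in gill, 7.62 in fin, 3.50 in kidney, 3.31 in heart, 2.29 in the library labelled spleen, 1.56 in liver and 0.70 in muscle. These 3 genes were highest in gill and lowest in muscle, and the first 4 beta rows of the run were highest in gill with muscle among their 3 lowest libraries. The unnamed class I row (Pjo18809) ran differently at low levels, with 1.88 in muscle, 1.54 in kidney, 1.00 in gill and at most 0.48 elsewhere. The second copies of psmb9-a and TAP2 in the run were under 1 in every library.

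Over the whole class I pathway the picture was less uniform. Of 12 symbols listed for it, TAP2 and TAPBP included, 11 were found, in 22 rows, of which 21 reached an FPKM of 1. In gill 12 of the 21 were at least 2-fold above the median of the other libraries, against 32.0% of all genes, and in muscle 8 were at least 2-fold below, against 10.2%. The invariant class I chain b2m (Pjo04472) was 1598 in gill, 839.6 in kidney, 751 in fin, 570.3 in heart, 57.0 in liver, 54.0 in the library labelled spleen and 40.0 in muscle. A Tap2 row outside the run (Pjo12592) was 5.14 in kidney, 4.99 in muscle, 4.28 in fin and 3.64 in gill. The chaperones CALR (Pjo22349) and PDIA3 (Pjo24628), which also fold other proteins, were 90.1 and 52.3 in muscle and 98.6 and 65.2 in gill. For 10 interferon response symbols 6 were found, in 16 rows, of which 11 were detected. Of these, 9 were at least 2-fold higher in fin, against 35.1% of all genes. In gill and in kidney 6 were, against 32.0% and 40.0%. Of the 11 rows 5 were highest in fin, against 18.4% of all genes. Gill, muscle and kidney were each highest for 2, against 23.2%, 25.6% and 17.0%. The transcription factor gene IRF1 (Pjo20621) was 137 in gill, 98.3 in fin, 59.2 in heart, 55.3 in kidney, 3.90 in muscle, 2.57 in the library labelled spleen and 3.20 in liver. The 2 rows highest in muscle, GBP1 (Pjo02047) and Irf7 (Pjo24429), were 104 and 17.9 there and 7.92 and 2.32 in gill. Of 6 T and NK cell symbols 4 were found, in 5 rows, all highest in gill, against 23.2% of all genes. CD3E (Pjo15788), a chain of the T cell receptor complex, was 28.2 in gill, 15.8 in fin and 4.57 in kidney. It was 0.69 in heart, 0.27 in liver, 0.20 in the library labelled spleen and 0.16 in muscle. B cell rows ran differently: of 15 detected, 9 were highest in kidney and 2 in gill, against 17.0% and 23.2% of all genes. The part of T, NK and B cells in the level of the immune subunits was not tested. In bulk tissue more cells of a type and more RNA per cell cannot be told apart.

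The ATPases of the 19S base moved with the constitutive median to differing degrees. The SD of their difference from it ran from 0.13 for PSMC6 to 0.50 for PSMC1 Pjo19891. That PSMC1 row stood at -0.85 log2 units in muscle and 0.50 in liver. PSMC5 (Pjo12911) had the highest median, at 109 in fin, 94.9 in gill, 93.4 in muscle, 83.5 in kidney, 71.8 in heart, 16.8 in the library labelled spleen and 12.5 in liver. The lowest median was that of a PSMC1 row (Pjo19891), at 60.6 in fin, 58.7 in gill, 45.3 in muscle, 40.8 in kidney, 33.5 in heart, 13.6 in the library labelled spleen and 10.9 in liver. Its partner copy (Pjo17105) held 53.6% of the summed PSMC1 FPKM in muscle and 35.3% in heart. Of the 7 ATPase rows 4 were highest in muscle, 2 in fin and 1 in kidney, against 25.6%, 18.4% and 17.0% of all genes.

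Among non-ATPase subunits of the 19S particle PSMD14 had the highest median, at 106 in muscle, 93.8 in kidney, 84.1 in gill, 75.9 in fin, 43.3 in heart, 15.3 in the library labelled spleen and 11.0 in liver. Apart from Psmd1 (Pjo21750), nearly at 0, the lowest median was that of the PSMD6 row Pjo11894, a lid subunit, at 24.1 in muscle, 12.5 in fin, 12.1 in kidney, 6.68 in gill, 4.65 in heart, 3.61 in the library labelled spleen and 0.53 in liver. The main PSMD1 row (Pjo21752), a large scaffold subunit of the base, stood apart and was singled out after its values were seen. PSMD1 was 129 in muscle, 102 in kidney, 65.7 in gill, 61.4 in the library labelled spleen, 59.2 in fin, 47.3 in liver and 32.1 in heart. It was 6.38 times the constitutive median in liver and 5.63 times in the library labelled spleen, against 0.93 to 1.56 in the other 5. No other constitutive row was as far above that median in liver. The row's protein annotation joins several entries, so it may span more than 1 transcript, and this was not tested.

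The paralogues psmd11a and psmd11b, which encode a lid subunit, divided by tissue. The a copy (Pjo03233) was 55.2 in gill, 53.4 in muscle, 50.5 in kidney, 36.5 in fin, 18.6 in heart, 6.62 in the library labelled spleen and 4.41 in liver. The b copy (Pjo12558) was 45.1 in gill, 34.1 in fin, 27.3 in heart, 15.8 in kidney, 15.6 in muscle, 5.37 in the library labelled spleen and 3.62 in liver. The b copy held 59.5% of the pair in heart, between 44.8% and 48.3% in liver, gill, fin and the library labelled spleen, and 22.7% and 23.8% in muscle and kidney, the libraries with high egg rows. The PSMD4 copies, ubiquitin receptors, divided less: Pjo19018 held from 28.5% in liver to 57.5% in muscle.

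The activators fell into 3 patterns. PSME2 (Pjo12854, PA28 beta) was 121 in gill, 98.9 in kidney, 76.6 in fin, 72.6 in heart, 11.9 in muscle, 10.8 in the library labelled spleen and 9.37 in liver. Psme1 (Pjo23999), which encodes the alpha chain of the same ring, was 92.3 in gill, 73.1 in fin, 53.8 in kidney, 39.8 in muscle, 25.3 in heart, 13.2 in the library labelled spleen and 10.8 in liver. Both were highest in gill, but PSME2 was much the lower of the pair in muscle, and the ratio of PSME2 to Psme1 was 2.87 in heart, 1.84 in kidney, 1.32 in gill, 1.05 in fin, 0.87 in liver, 0.82 in the library labelled spleen and 0.30 in muscle. PSME3 (Pjo12575), the nuclear PA28 gamma, was 132 in muscle, 88.3 in kidney, 49.1 in fin, 28.1 in gill, 27.1 in heart, 9.89 in the library labelled spleen and 3.09 in liver. PSME3 was led by muscle and kidney, and the sum of Psme1 and PSME2 relative to it ran from 0.39 in muscle to 7.62 in gill.

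The PA200 genes had the third pattern, with heart first. The psme4a row (Pjo13767) was 20.8 in heart, 7.07 in the library labelled spleen, 6.44 in muscle, 5.90 in liver, 1.27 in fin, 1.22 in gill and 0.74 in kidney. Relative to the constitutive rows it varied most of all 59 members, with an SD of 2.27 log2 units. Its difference from their median lay between -0.60 and -0.29 in heart, liver and the library labelled spleen and between -5.33 and -3.49 in the others. The psme4b row (Pjo12637) was 15.0 in heart, 8.38 in kidney, 8.27 in fin, 8.05 in gill, 6.43 in muscle, 1.59 in the library labelled spleen and 0.93 in liver. The psme4a copy was 6.34 times psme4b in liver and 0.088 times in kidney. In mouse, PA200 is known for its role in sperm formation.

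**Figure D4:**
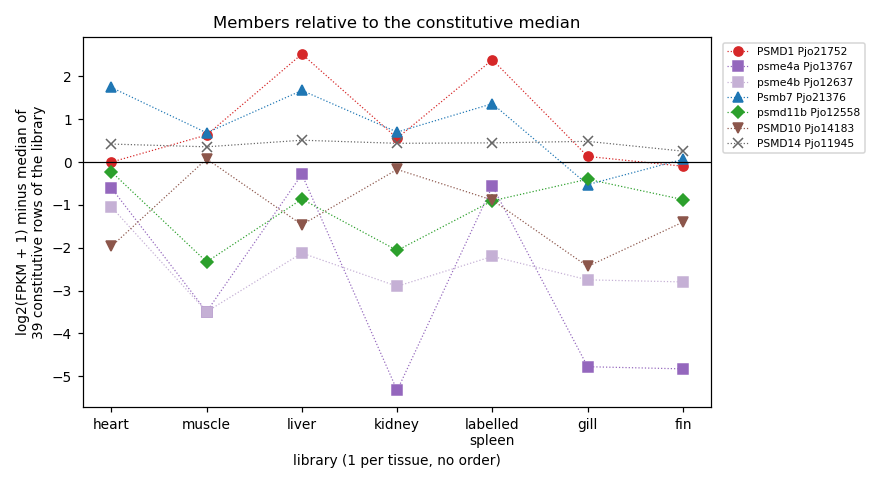
Difference of log2(FPKM + 1) between a member and the median of the 39 constitutive rows of the same library, for 6 members that vary and for PSMD14, the steadiest, with points of 1 gene joined by dotted lines that mark no order of tissues. PSMD1 stands above 2 in liver and the library labelled spleen, and psme4a spans from -5.33 in kidney to -0.29 in liver.

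Assembly factors of the 19S base leaned to muscle and kidney. PSMD10 (Pjo14183, gankyrin) was 87.1 in muscle, 61.1 in kidney, 23.4 in fin, 10.2 in gill, 7.46 in heart, 5.44 in the library labelled spleen and 2.05 in liver. Psmd9 (Pjo07286) was 74.2 in muscle, 54.3 in kidney, 25.2 in fin, 11.6 in gill, 7.06 in heart, 6.96 in the library labelled spleen and 3.01 in liver. Both were far lower in gill than in muscle. Muscle, kidney and fin came first in this order for them and for the egg rows. Gill came next for both genes, above heart, and last for the egg rows, whose median there was 0.52. PSMD5 (Pjo21448), the other factor of this kind, was 13.9 in kidney, 12.8 in muscle, 9.25 in fin, 7.65 in gill, 2.94 in heart, 2.18 in the library labelled spleen and 1.02 in liver. All 4 core chaperones were highest in muscle, as were 29 of the 56 detected members and 25.6% of all detected genes. In muscle and gill, psmg1 was 46.2 and 34.6, and psmg2 (Pjo19256) was 41.7 and 25.0. Psmg3 (Pjo03092) was 73.1 and 25.8 in these, and PSMG4 (Pjo20565) was 14.5 and 4.67. PSMF1 (Pjo07057), the PI31 gene, was 17.4 in gill, 17.1 in kidney, 13.3 in muscle, 12.8 in fin, 8.85 in heart, 6.60 in the library labelled spleen and 4.16 in liver. PSME3IP1, the PSME3-binding protein, was 35.2 in muscle, 32.4 in kidney and 12.9 in gill. The part of the egg rows' source in these levels was not tested.

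Gill and muscle, which led the immune and the constitutive rows, were compared directly, a comparison chosen after the data were seen. At a 4-fold limit on FPKM + 1, 7 of the 56 detected members were higher in gill and 3 higher in muscle, against 16.6% and 17.0% of all genes. Neither share exceeded its background. The tissues were picked for leading these rows, so the members past the limit are listed as a description only. The gill side held psmb9-a at 5.11 log2 units, both rows annotated as beta 12 or 13 at 4.46 and 4.53, the copies PSMB7 Pjo19166 and PSMA6 Pjo15776 at 4.21 and 4.18, Psmb8 at 4.15 and PSME2 at 3.25. The next row on that side, psmd11b, was at 1.47. The muscle side held PSMD10, Psmd9 and PSME3, at -2.97, -2.58 and -2.20. With kidney in place of muscle no member passed on the gill side, where Psmb8 reached 1.84, and with fin in place of gill none passed on the muscle side.

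**Figure D5:**
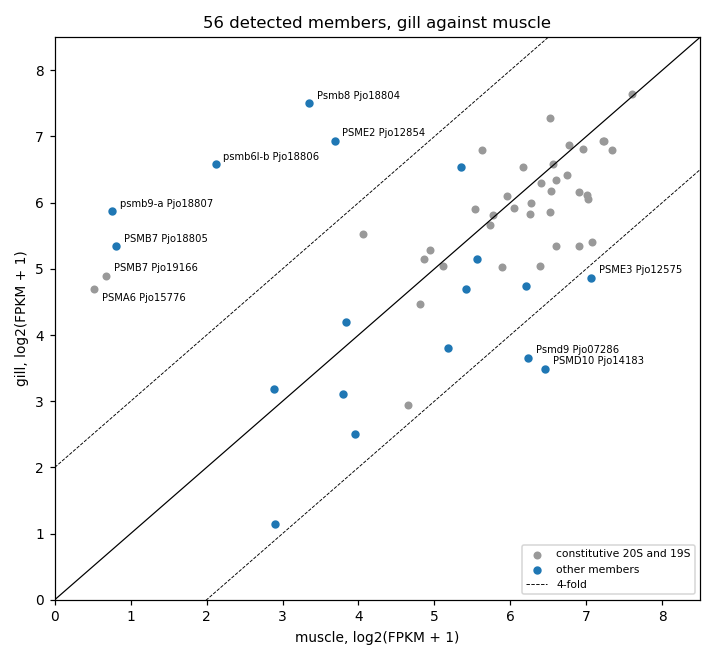
The 56 detected members by their level in muscle and in gill, as log2(FPKM + 1), with lines of equality and of a 4-fold difference and names for members past it. The 7 named members above the upper line lie apart from the rest, none of which is above 1.47 log2 units, and most constitutive rows (grey) lie near equality.

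Partners of the proteasome outside the naming rule were listed as 21 symbols, of which 19 were found, in 29 rows. SEM1, a small 19S subunit, was 305 in heart, 295 in gill, 259 in muscle, 249 in fin, 209 in kidney, 89.0 in the library labelled spleen and 76.0 in liver. The ATPase gene vcp (Pjo05327), which pulls ubiquitin-tagged proteins from complexes, was 271 in muscle, 263 in fin, 237 in kidney, 231 in gill, 163 in heart, 69.4 in the library labelled spleen and 46.5 in liver. In liver 22 of the 29 rows were at least 2-fold below the median of the other libraries, against 47.7% of all genes. ZFAND5, which in mouse muscle stimulates the proteasome during wasting, had rows of unlike profile. Pjo11357 was 228 in heart, 174 in muscle and at most 98.9 elsewhere. Pjo05696 was 224 in gill, 25.8 in muscle and 21.5 in heart, and Pjo09219 was 39.6 in heart, 33.5 in gill and 16.7 in muscle. TXNL1 (Pjo21525), a thioredoxin bound to the 19S particle, was 133 in gill and 98.1 in muscle. At the 4-fold limit 2 of the 29 rows were higher in gill than in muscle and 1 higher in muscle, against 16.6% and 17.0% of all genes.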

How the data were processed

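Purified mRNA was sequenced from 7 tissues, 1 library each, with a Vazyme kit for an MGI sequencer, per the labels' protocols. The submitters' processing notes list RSEM 1.3.3 and HISAT2 2.2.1, and which assembly or annotation served is not given in the sources used here. Values came as 1 deposited table of FPKM for 26107 rows, printed to 2 decimals, and the columns were matched to samples by tissue name. Python 3.11.15, numpy 2.4.6, pandas 2.3.3 and matplotlib 3.10.9 were used. Classes followed the gene names, except for 2 beta rows whose deposited annotation reads beta 12 or beta 13a. Detected rows are those that reached an FPKM of 1 in some library (21151 of all rows). Differences used log2(FPKM + 1) and ratios no pseudocount; limits were 2-fold against the median of the other 6 libraries and 4-fold for gill against muscle. Median-of-ratios factors came from 17448 genes above 0 in every library. The rules were run on simulated libraries with equal levels in all tissues, little noise and changes planted in gill. That run checks only the arithmetic of the rules, because the real libraries differ in makeup and scaling. With 1 sample per tissue no test was run.

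Named members were all immune, catalytic, activator, PI31 and core chaperone rows, the rows of highest and lowest median in each other class, and the 6 most and 6 least variable. The 19S assembly factors, copies that differ from their namesakes, Psma3, PSMA5, psmb3 and PSMD1 were added after their values were seen. Of other lists, the rows of highest median were named, and IRF1, CD3E, genes of the Psmb8 run and some rows of unlike profile besides. Members and lists were chosen with earlier results of these data known. Alternatives were another pseudocount, scaling, limit, reference and handling of copies, and leaving out libraries.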

Additional observations from a re-analysis of the deposited data

How the results depend on the processing

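With 1 library per tissue no replicate can be left out, and with no depth in the deposited FPKM, low values such as psmb9-a in muscle carry an unknown error. No paired analysis was possible because each tissue has 1 library. A value is given here where it changed by over 1.5 times. Of 248 values recomputed, 197 stayed within that limit and 51 did not. Some of the 197 could not change, so that number overstates how steady the results were. Keeping only rows named psmb8, psmb9 or psmb10 as immune left the reference of each difference unchanged. The psmb8 to psmb5 ratio has no further copies to drop. No member was highest in the library labelled spleen, so leaving it out could not alter the counts of members highest elsewhere. A change of sign was looked for only in the log2 differences of the immune rows that were at least 1 unit in size. None of these changed sign. The cause of these changes was not tested.

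The counts of members highest in muscle and in gill stayed within the limit under every alternative run that kept those libraries. Median-of-ratios scaling gave 13 highest in heart, 0 in kidney and 2 in fin, a common sum 1 in kidney and 3 in fin, and leaving out muscle 26 in kidney and 11 in fin. For the counts against the other 6 libraries, median-of-ratios scaling gave 8 higher in muscle, 8 in gill, 6 in fin and 1 in kidney, and 0 lower in heart, 6 in the library labelled spleen and 8 in liver. A 1.5-fold limit gave 33 higher in muscle, 22 in gill, 30 in fin and 40 in kidney, and 36 lower in heart. A 4-fold limit gave 3, 6, 6 and 2 higher in these, 0 lower in heart and 30 in the library labelled spleen. The mean of the other 6 as reference gave 33 higher in muscle, 22 in gill and 35 in kidney and 3 lower in heart. A reference without the library labelled spleen gave 11 higher in muscle, 9 in kidney and 23 lower in heart. Without kidney in the reference the counts were 25 in gill and 28 in fin, and without muscle 24 in gill, 27 in fin and 32 in kidney. Of these alternatives only median-of-ratios scaling has shares over all genes, given above, so the other counts stand without a background.

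After median-of-ratios scaling the constitutive median was 52.5 in heart, 42.5 in kidney, 30.4 in the library labelled spleen and 35.2 in liver. In fin it was 96.4 over 20S rows alone. With a pseudocount of 0.1, psmb9-a stood at -6.86 log2 units from the 20S median in muscle, -3.75 in the library labelled spleen and -3.18 in liver. The psmb9 to psmb6 ratio in muscle was 0.024 with the higher copy only and 0.072 with a pseudocount of 1, which gave 0.16 in the library labelled spleen and 0.20 in liver. In the 4-fold comparison of gill with muscle, kidney in place of muscle left 0 on the gill side and fin in place of gill 0 on the muscle side. The references for the immune subunits with the beta 12 and 13 rows counted as constitutive, or without the low PSMA6 and PSMB7 copies, were chosen after seeing the data, and so were the alternatives of the gill and muscle comparison.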

Other observations

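Further partners of the proteasome, chosen here after their values were seen, were spread over the tissues like different members of the family. The deubiquitinase genes USP14 (Pjo01268) and UCHL5 (Pjo21833), both bound to the 19S particle, were 98.8 and 50.0 in muscle, 75.5 and 38.9 in kidney and 29.7 and 16.7 in gill. AKIRIN2 (Pjo19683), known in human cells for bringing proteasomes into the nucleus, was 137 in kidney, 136 in muscle, 46.0 in fin, 35.1 in gill, 21.7 in heart, 12.4 in the library labelled spleen and 5.09 in liver. Muscle and kidney led it, as they led PSME3. The ubiquitin receptor had 2 adrm1b rows of unlike profile: Pjo23173 was 68.8 in kidney, 58.3 in muscle and 22.0 in heart, and Pjo22841 was 14.4, 12.7 and 32.2. The annotation of Pjo22841 joins the receptor with a gene of another family, so its value is uncertain.

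Transcription factors that act on proteasome genes in mammals were listed with the partners. NFE2L2 (Pjo09691), of the oxidative stress response, was 384 in gill, 154 in fin, 79.2 in heart, 26.6 in kidney, 26.6 in the library labelled spleen, 23.6 in liver and 7.68 in muscle. The other rows of this name were lower and ran differently: Pjo22737 was 15.7 in kidney, 13.8 in heart and 7.40 in gill, and Pjo06404 was at most 3.08, in fin. The 3 rows named for NFE2L1, which restores proteasome genes when the protease is blocked, peaked in different libraries. They were led by 23.0 in kidney for Pjo19082, 14.6 in heart for Pjo12545 and 6.24 in fin for Pjo03658.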
